A study of Homo sapiens with 6 samples.

Results

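This account follows 42 human genes of the amino acid response, chosen by name as reported targets of the transcription factor ATF4 or as genes of amino acid synthesis and transport, in LNCaP cells given androgen. Of the 42 genes, 10 encode stress transcription factors and regulators, 9 enzymes of serine, glycine and one-carbon metabolism, 11 other amino acid enzymes and the tRNA export receptor, and 12 amino acid carriers. For each gene the brightest of the probe sets assigned to no other gene was used, brightness being the mean over the 6 arrays of log2(signal + 16), and a probe set ending in _x_at, a type prone to cross-hybridisation, was read where no other passed. Of 19775 genes with such a probe set, 14269 were tested, and 38 of the 42 members were among them. MTHFD1L, ALDH1L2 and BCAT1 were too dim to be tested (mean signal under 17.3), and GPT2 had no probe set that names it alone and was not analysed here.

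LNCaP is an established human line that was grown from a metastasis of prostate cancer and responds to androgen, so all results describe 1 cell line. Before treatment all 6 cultures spent 3 days without steroids, in RPMI free of phenol red with 10% serum stripped by charcoal and dextran. In the DHT group, 3 cultures were exposed for 48 h to the potent natural androgen dihydrotestosterone (DHT) at 100 nM. The control group was 3 further cultures, and the sources used here do not state what they received instead. The labels call the cultures of a group biological replicates without saying whether they were grown on separate days, so p-values measure the spread between these cultures.

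ATF4 is made when phosphorylation of the initiation factor eIF2 slows general translation, which happens when amino acids run short or when unfolded protein builds up in the endoplasmic reticulum. It binds DNA together with C/EBP proteins and switches on amino acid enzymes, carriers and tRNA synthetases, and with prolonged stress also the factors CHOP (DDIT3), ATF3 and TRIB3. Much of this control acts on translation and protein, which arrays of mRNA do not measure. In prostate cancer cells amino acid carriers and ATF4 have been studied as points where androgen signalling meets cell growth.

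The DNA element through which ATF4 acts, the C/EBP-ATF response element, was looked up in the promoters of the members as a sequence feature beside the array values. The letters searched were TGATGNAA on both strands, in the 250 bases before and 50 bases after each start site listed by RefSeq in build GRCh38.p14. Of the 35 members with a promoter in that table, 12 held the element (34.3%), against 1217 of all 27305 genes in the table (4.46%) and 359 of the 11458 tested genes with a promoter (3.13%). Counted by start sites, 14 of 62 held it among the members and 1270 of 35116 in the whole table. The genes were named as ATF4 targets in part from earlier work on such sites, so this share is a description and no independent finding. The windows below, each 30 bases and lying wholly before the start site, show the element in capitals in the 6 tested members that had it there. In CHAC1 and GOT1 it lies on the opposite strand and reads as its reverse complement.

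ATF3: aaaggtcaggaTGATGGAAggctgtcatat
CHAC1: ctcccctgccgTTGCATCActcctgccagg
CEBPG: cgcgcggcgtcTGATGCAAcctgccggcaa
ASNS: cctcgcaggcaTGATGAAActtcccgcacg
GOT1: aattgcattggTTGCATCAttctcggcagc
SLC1A5: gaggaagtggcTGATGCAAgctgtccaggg

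The windows lie, in GRCh38.p14, at chr1:212565205-212565234 on the plus strand for ATF3, chr15:40953251-40953280 on the plus strand for CHAC1, chr19:33374060-33374089 on the plus strand for CEBPG, chr7:97872458-97872487 on the minus strand for ASNS, chr10:99430804-99430833 on the minus strand for GOT1 and chr19:46784893-46784922 on the minus strand for SLC1A5. The element began 68 bases before the start site in ASNS, 42 in CEBPG, 97 in SLC1A5, 191 in ATF3, 198 in GOT1 and 209 in CHAC1. SLC1A4, SLC38A1, SLC3A2 and SLC7A1 had it across or after a start site, and MTHFD1L and BCAT1, both too dim to test, before one. By role, 5 of 11 carriers with a promoter held it, 3 of 8 other enzymes, 3 of 10 stress genes and 1 of 6 serine and one-carbon enzymes. Among neighbouring genes, 7 of 16 cytosolic tRNA synthetases held it (AARS1, CARS1, GARS1, IARS1, MARS1, NARS1 and TARS1) and 1 of 14 mitochondrial ones, 3 of 18 other reported ATF4 or stress targets, 1 of 13 genes acting on eIF2, 0 of 16 folate and methionine enzymes, 0 of 11 glutamine and arginine enzymes, 1 of 18 other carriers and 1 of 21 mTORC1 genes. With C fixed in the open place (TGATGCAA, a search added after the first was seen, whose matches all lie within those of the first) 7 members held it (20.0%, against 1.08% of all genes). The full palindromic androgen response element was matched in none of the 35 members' promoters, in no tested gene and in 1 gene of the whole table, which says only that these letters are not in these windows. Of the 10 tested members with the C/EBP-ATF element, 2 rose with DHT and 1 fell, with a median difference of -0.03. Of the 23 tested members with a promoter and no element, 4 rose and 1 fell, with a median of 0.06. Beside these, 12.9% of all tested genes passed in either direction, with a median of 0.02. DDIT3 and TRIB3, which ATF4 switches on with prolonged stress, are in the group without the element. A promoter window without these letters therefore does not mark a gene as outside the control of ATF4. Whether the groups differ was not tested.

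Each array had been scaled to a mean signal of 100.03 after trimming, and array medians ran from 25.7 to 30.1. The arrays carried the labelled cell type: 10 luminal prostate genes lay above the limit on dim probe sets. Of these, 4 passed as higher with DHT (KLK3, KLK2, TMPRSS2 and ACP3) and 2 as lower (HOXB13, -0.37, adjusted p = 0.0212, and KRT8, -0.43, adjusted p = 0.00574). KLK3, the gene of prostate-specific antigen, went from 2186 ± 261 in controls to 8985 ± 441 with DHT (SD, n = 3 each). The summed signal of these luminal genes ran from 11757 to 11867 in controls and from 22850 to 23310 with DHT. The basal prostate genes KRT5, KRT14 and KRT15 were all below the limit (TP63 had no probe set naming it alone), with summed signals of 7.74 to 24.5 in controls and 22.8 to 31.8 with DHT. Stromal genes summed to 489 to 561 and 467 to 517 (5 of 6 above the limit, COL1A1 lower with DHT), endothelial genes to 191 to 204 and 200.2 to 262 (2 of 3), leukocyte genes to 31.9 to 60.6 and 14.4 to 45.8 (1 of 4, PTPRC below the limit) and neuroendocrine genes to 298 to 309 and 212 to 307 (3 of 4). The ratio of 3' to 5' signal, a measure of RNA integrity and labelling, was 1.37 ± 0.0479 in controls and 1.77 ± 0.0668 with DHT for ACTB, and 0.904 ± 0.0437 and 1.06 ± 0.0491 for GAPDH, each with an exact two-sided permutation p of 0.1, the smallest that 3 against 3 arrays can give. The hybridisation spikes, control transcripts added before hybridisation, had a geometric mean signal of 773 ± 60.8 in controls and 1134 ± 107 with DHT (exact two-sided permutation p = 0.1). The part of both differences in the results was not tested.

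The comparison of DHT with control asked how steroid-deprived prostate cancer cells change their mRNA when androgen returns. Changes of the members were small and went both ways. ATF3, DDIT3 and TRIB3 among the stress genes, MTHFD1 and GLUD1 among the enzymes and SLC7A1 and SLC7A11 among the carriers rose, and the serine synthesis enzyme PHGDH and the glutamine carrier SLC1A5 fell, while ATF4 itself did not pass. In all, 7 of the 38 tested members rose and 2 fell at an adjusted p of 0.05 in limma, 23.7% of those tested, against 12.9% of all 14269 genes (6.95% higher and 5.91% lower). Differences are given as DHT minus control on the log2(signal + 16) scale, which understates the change of dim genes. The median difference over the 38 members was 0.04, against 0.02 over all genes, and the members ran from -0.69 to 0.60, where all genes ran from -2.14 to 4.07. All 3 DHT arrays lay above all 3 controls for 11 members and below them for 6, against 16.9% and 14.0% of all genes (31.0% in either order). None of the 9 calls passed in limma without a trend of the variance on signal (adjusted p = 0.0638 to 0.168), where 14 of the 38 members had an unadjusted p under 0.05, against 17 with the trend, beside 22.3% and 25.9% of all genes; 4.70% of all genes passed the adjusted threshold without the trend. When the arrays were scaled to their hybridisation spikes, the median of all genes fell to -0.45. No member then passed as higher and 27 passed as lower, beside 140 and 7442 of all 14269 genes. Both as deposited and with equal array medians, PHGDH and SLC1A5 passed as lower, and ATF3 and TRIB3 as higher. With spike scaling PHGDH and SLC1A5 passed as lower, and none of the 7 members that rose passed as higher. Spike scaling lowers genes in general, so small rises are bound to be lost and falls to be kept. It therefore does not show which of these calls hold.

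**Figure D1:**
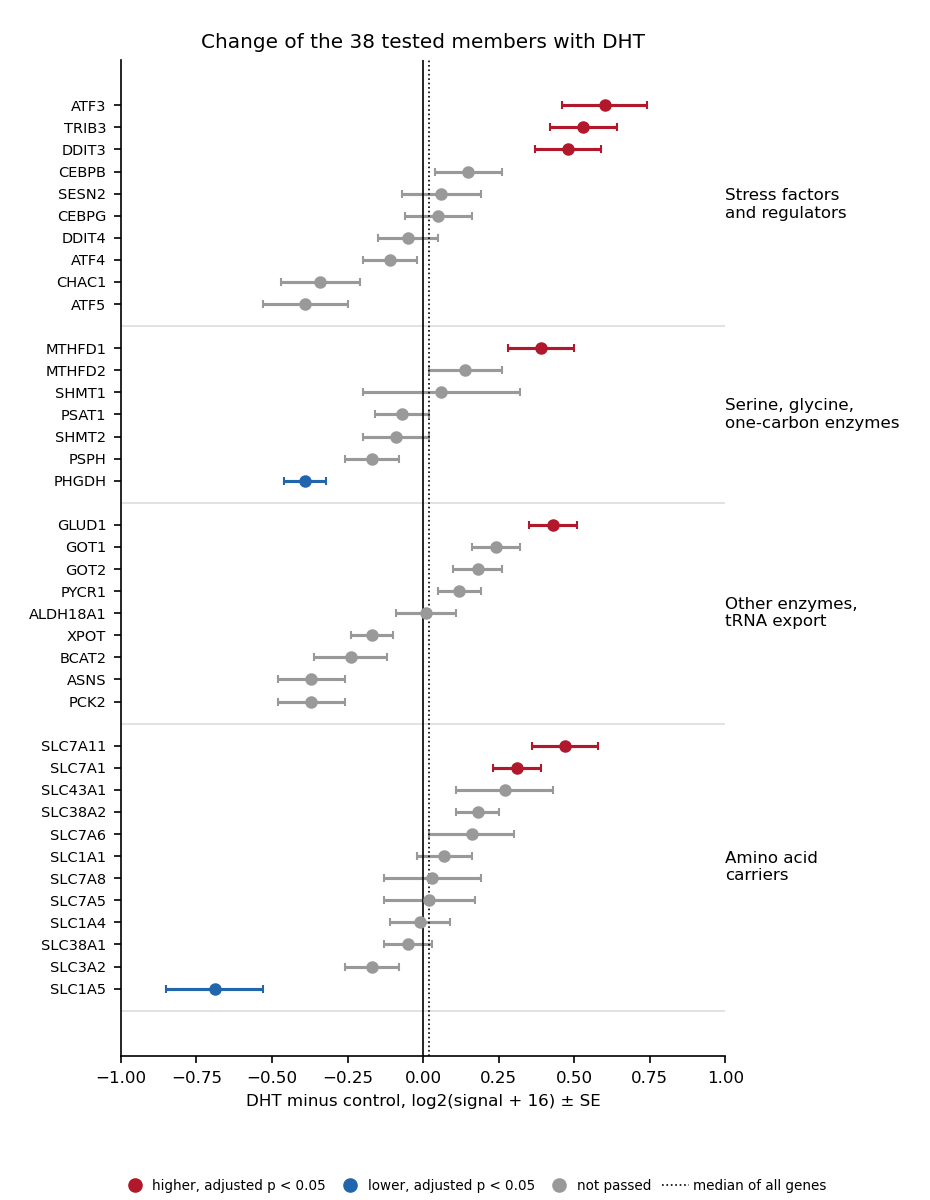
DHT minus control on the log2(signal + 16) scale (horizontal axis) for each of the 38 tested members, grouped by role, with bars of 1 standard error from limma. Red points passed as higher and blue as lower at an adjusted p of 0.05, grey points did not pass, and the dotted line is the median of all genes at 0.02. Members that rose and fell are found side by side among the enzymes and the carriers, and ATF5 and CHAC1 lie at the bottom of the stress genes at -0.39 and -0.34.

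Among the 10 stress factors and regulators, 3 rose and none fell, beside 12.9% of all genes in either direction. Their median difference was 0.06, and 5 had an unadjusted p under 0.05 in limma (25.9% of all genes). ATF3, a factor of the ATF family induced by many stresses, had signals of 333, 339 and 242 in the controls and 384, 542 and 487 with DHT (probe set 202672_s_at). The groups did not overlap, with control replicate 3 the lowest array and DHT replicate 2 the highest. The ratio of the means was 1.55 and the difference 0.60 ± 0.14 (SE; limma adjusted p = 0.0182). DDIT3, which encodes the pro-apoptotic factor CHOP, had 158, 167 and 129 in the controls and 227, 209.8 and 213 with DHT (209383_at). Its DHT arrays lay close together and above every control, with a difference of 0.48 ± 0.11 (adjusted p = 0.0163). TRIB3, a pseudokinase that binds ATF4 and AKT, had 515, 536 and 491 in the controls and 620.3, 758 and 894 with DHT (218145_at). The DHT arrays were spread over a wider range than the controls but did not reach them, and the difference was 0.53 ± 0.11 (adjusted p = 0.011). The ATF3 call was lost on leaving out control replicate 3 (0.45, adjusted p = 0.0628), DHT replicate 2 (0.50, adjusted p = 0.0734) or DHT replicate 3 (0.57, adjusted p = 0.0625), and that of DDIT3 on leaving out control replicate 3 (0.38, adjusted p = 0.06) or DHT replicate 1 (0.45, adjusted p = 0.0583) or with equal array medians (0.42, adjusted p = 0.0713). TRIB3 passed without each of the 6 arrays in turn, but neither TRIB3 (0.11, adjusted p = 0.586) nor ATF3 (0.24, adjusted p = 0.435) passed when the probe sets of a gene were averaged (10.4% of all genes passed then).

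The other 7 stress genes did not pass, and they lay on both sides of 0. ATF4 had signals of 2624, 2993 and 2602 in the controls and 2282, 2747 and 2566 with DHT. The groups overlapped, and the difference of -0.11 had a 95% interval from -0.31 to 0.08. ATF5, its close relative that is likewise controlled by translation, had 112, 104 and 137 in the controls and 75.1, 92.5 and 90.5 with DHT. All DHT arrays lay below the controls, but the difference of -0.39 ± 0.14 did not pass (adjusted p = 0.0964). CHAC1, which breaks down glutathione and is a widely used readout of ATF4 and CHOP, had 212, 181 and 178 in the controls and 120.3, 168 and 153 with DHT, again without overlap and without passing (-0.34 ± 0.13, adjusted p = 0.112). CEBPB and CEBPG, partners of ATF4 on the element shown above, had 0.15 (95% interval -0.10 to 0.40) and 0.05 (-0.19 to 0.29). SESN2 and DDIT4, which restrain the growth kinase complex mTORC1 under stress, had 0.06 (-0.21 to 0.34) and -0.05 (-0.27 to 0.18).

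**Figure D2:**
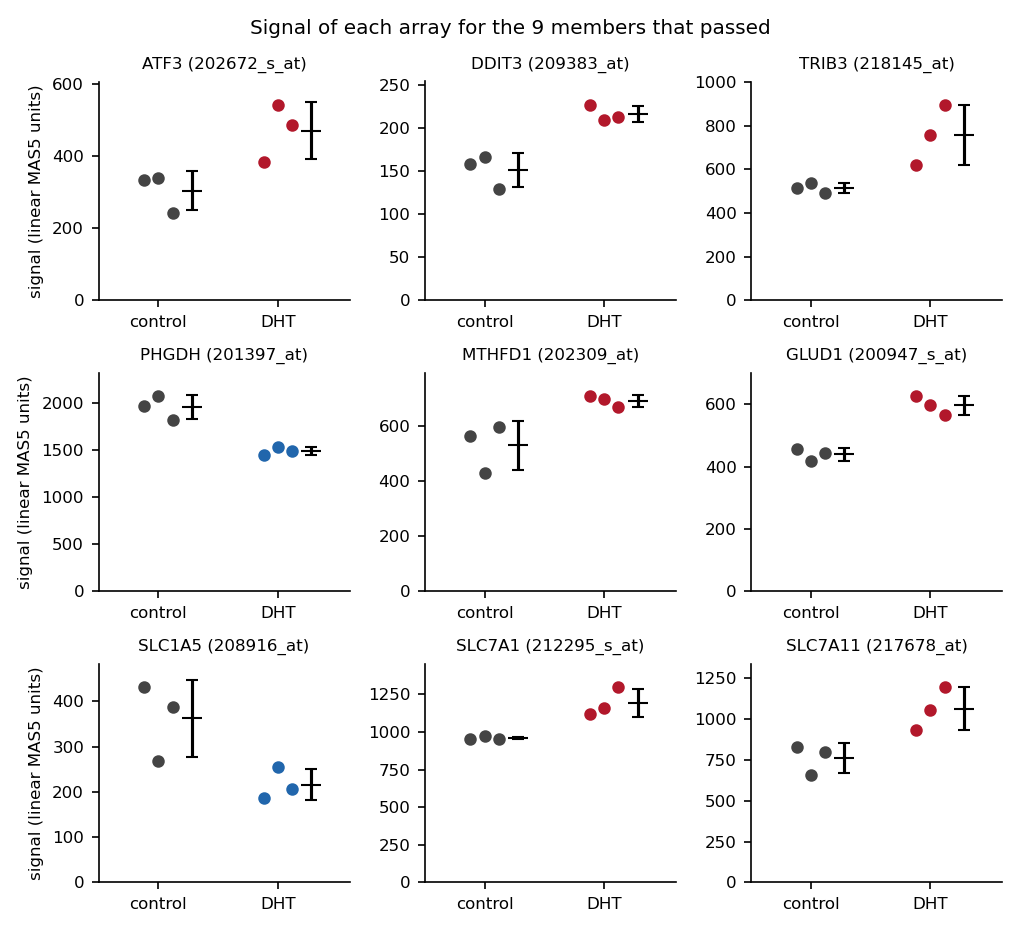
Signal in linear MAS5 units (vertical axes, each from 0) of every array for the 9 members that passed, with 3 control arrays in grey and 3 DHT arrays in colour, and the mean ± SD of each group beside them. In all 9 genes the groups do not overlap, which is no further support, since the genes were picked by passing on these same arrays. Over all genes, 31.0% had groups without overlap. In SLC1A5 the lowest control of 268 and the highest DHT array of 255 lie closest.

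Of 9 enzymes of serine, glycine and one-carbon metabolism, 7 were tested. Of these 1 rose and 1 fell (28.6%, beside 12.9% of all genes), with a median difference of -0.07. PHGDH, which draws 3-phosphoglycerate out of glycolysis in the first step of serine synthesis, had signals of 1964, 2075 and 1822 in the controls and 1443, 1529 and 1486 with DHT (201397_at). Every DHT array lay clearly below every control. The difference was -0.39 ± 0.07 (limma adjusted p = 0.00538), and it passed without each array in turn and with equal array medians (-0.45). The enzymes of the next steps, PSAT1 and PSPH, did not pass in the probe sets read, at -0.07 (95% interval -0.27 to 0.12) and -0.17 (-0.37 to 0.02). MTHFD1, the cytosolic enzyme that interconverts one-carbon units carried by folate, had 561, 429 and 594 in the controls and 707, 695 and 666 with DHT (202309_at). The DHT arrays lay close together, and the difference of 0.39 ± 0.11 passed (adjusted p = 0.0392). That call was lost without any array other than control replicate 3 (adjusted p = 0.0505 to 0.108; 0.25 without control replicate 2, the low one), with no limit on dim probe sets (adjusted p = 0.0729), with the probe sets of a gene averaged (adjusted p = 0.0509) and with equal array medians (0.32, adjusted p = 0.219).

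The mitochondrial arm of the same pathway did not pass. SHMT2, which makes glycine from serine in mitochondria, had -0.09 (95% interval -0.33 to 0.15), and MTHFD2, the mitochondrial dehydrogenase prominent in tumours, had 0.14 (-0.13 to 0.40). The cytosolic SHMT1 was dim, at a mean of 20.5 in controls and 21.7 with DHT, and its interval of -0.50 to 0.63 was the widest of the 38 members. MTHFD1L, which releases formate from mitochondria, had signals of 5.68 to 28.3 over the 6 arrays and ALDH1L2, a mitochondrial folate enzyme, 2.29 to 26.6, with overlapping groups, and neither was tested.

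Among the other amino acid enzymes and the tRNA export receptor, 9 of 11 were tested. Of these 1 rose and none fell (11.1%, beside 12.9% of all genes). Their median difference was 0.01, and 6 had an unadjusted p under 0.05 in limma (25.9% of all genes). GLUD1, the mitochondrial glutamate dehydrogenase, had signals of 458, 417 and 445 in the controls and 627, 599 and 565 with DHT (200947_s_at). The groups were well apart. The difference of 0.43 ± 0.08 had the smallest adjusted p of the members (limma adjusted p = 0.00489), and it passed without each array in turn, though not with equal array medians (0.36, adjusted p = 0.0864). A brighter probe set of GLUD1, 200946_x_at, was passed over for its type. It had 0.25 ± 0.08 and did not pass (limma adjusted p = 0.0815 over probe sets), and did not differ from the probe set read (adjusted p = 0.399 for the pair). GLUD1 has a near-identical copy, GLUD2, whose transcripts these probes may also bind. The aspartate aminotransferases GOT1 of the cytosol and GOT2 of the mitochondrion, which pass electrons and aspartate between the compartments, had 0.24 ± 0.08 and 0.18 ± 0.08 with all DHT arrays above the controls. GOT1 missed the threshold (adjusted p = 0.0554) and passed with quantile normalisation (adjusted p = 0.0485), on a stricter limit that drops the dimmest 60% (adjusted p = 0.0417) and with the probe sets of each gene averaged (adjusted p = 0.0403).

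ASNS and PCK2, a pair of textbook ATF4 targets, had nearly the same difference in the other direction. ASNS, asparagine synthetase, had signals of 1786, 1833 and 1566 in the controls and 1091, 1456 and 1489 with DHT (205047_s_at). Its groups did not overlap, and the difference of -0.37 ± 0.11 missed the threshold (limma adjusted p = 0.0564). With spike scaling it had -0.91 and passed, but that scaling lowers genes in general (median of all genes -0.45), so falls are bound to be kept. Apart from that, ASNS passed with quantile normalisation (adjusted p = 0.0486), equal array medians (-0.43, adjusted p = 0.0446) and the lowest 60% left out (adjusted p = 0.041). It passed in none of the 6 fits that leave out an array (adjusted p = 0.0505 to 0.157), and had -0.23 without DHT replicate 1. PCK2, the mitochondrial phosphoenolpyruvate carboxykinase, had 1008, 935 and 768 in the controls and 601, 706 and 777 with DHT. DHT replicate 3 overlapped control replicate 3, and the difference of -0.37 ± 0.11 (adjusted p = 0.0553) passed without either of these arrays (-0.45, adjusted p = 0.0456 without DHT replicate 3 and -0.48, adjusted p = 0.0246 without control replicate 3) and with the lowest 60% left out (adjusted p = 0.0395). The proline synthesis enzymes PYCR1 and ALDH18A1 had 0.12 and 0.01, the branched-chain aminotransferase BCAT2 had -0.24 (adjusted p = 0.228), and XPOT, which carries tRNA out of the nucleus, had -0.17 ± 0.07 (adjusted p = 0.133). BCAT1, the cytosolic branched-chain enzyme, had signals of 4.03 to 31.9 with overlapping groups and was not tested.

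Among the 12 amino acid carriers, all tested, 2 rose and 1 fell, beside 12.9% of all genes in either direction. Their median difference was 0.05. SLC7A11, the cystine carrier whose import feeds glutathione synthesis, had signals of 826, 658 and 797 in the controls and 933, 1057 and 1195 with DHT (217678_at). No DHT array fell within the control range, and the difference was 0.47 ± 0.11 (limma adjusted p = 0.0144). SLC7A1, the carrier of arginine and lysine, had 955, 971 and 957 in the controls, which lay within a narrow range, and 1122, 1160 and 1300 with DHT (212295_s_at; 0.31 ± 0.08, adjusted p = 0.0216). SLC1A5, also called ASCT2, a main importer of glutamine, had 432, 268 and 387 in the controls and 187, 255 and 207 with DHT (208916_at). Control replicate 2 lay near the DHT arrays, and the difference of -0.69 ± 0.16 (adjusted p = 0.0167) was the largest in size among the members. SLC1A5 passed only without control replicate 2 or DHT replicate 2 when single arrays were left out (adjusted p = 0.0541 to 0.0668 without control replicate 1, control replicate 3, DHT replicate 1 or DHT replicate 3; -0.55 without control replicate 1). The SLC7A1 call was lost on leaving out control replicate 1, control replicate 3, DHT replicate 2 or DHT replicate 3 (adjusted p = 0.0512 to 0.0886), and that of SLC7A11 on leaving out DHT replicate 3 (0.39, adjusted p = 0.0585), and neither passed with equal array medians (0.24 and 0.41, adjusted p = 0.177 and 0.0828). SLC7A11 did not pass with its probe sets averaged (0.31, adjusted p = 0.119).

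The partner chain and the other carriers did not pass. SLC3A2, the heavy chain that SLC7A11, SLC7A5, SLC7A6 and SLC7A8 need at the cell surface, had signals of 387, 392 and 342 in the controls and 314, 353 and 323 with DHT, which overlap, with a difference of -0.17 (95% interval -0.36 to 0.03). SLC7A5 or LAT1, the importer of leucine and other large neutral amino acids, had 65.5, 65.5 and 56.5 in the controls and 57.5, 72.8 and 61.3 with DHT, a difference of 0.02 with an interval of -0.31 to 0.35. SLC43A1 or LAT3, another leucine carrier of prostate cells, had 217, 139 and 193 in the controls and 225, 262 and 182 with DHT. Its groups overlapped, and its 0.27 did not pass (interval -0.08 to 0.62). SLC38A2 or SNAT2, the carrier of small neutral amino acids that cells raise on amino acid starvation, had 0.18 ± 0.07 with all DHT arrays above the controls (adjusted p = 0.105), while its relative SLC38A1 had -0.05 (-0.24 to 0.13). The glutamate carrier SLC1A1 and the neutral amino acid carrier SLC1A4 had 0.07 and -0.01, and SLC7A6 and SLC7A8, exchangers of dibasic and neutral amino acids, had 0.16 and 0.03.

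Of the 38 tested members, 21 had more than 1 tested probe set, and in 12 of these all probe sets had the same sign. The same share over all genes with several probe sets was not counted. In the whole set, 74 probe sets were tested, of which 8 passed as higher and 4 as lower when adjusted over probe sets, against 10.3% of all 32768. Whether another probe set of a gene changed by a different amount than the one read was tested in limma on the log2 ratio of both, over all 12316 such pairs of the array, a test added after the values were seen. Of 36 pairs in the members 3 differed, beside 5.96% of all pairs. The TRIB3 probe set 1555788_a_at went the other way, from a mean of 183 in controls to 145 with DHT, and its difference was 0.84 below that of the probe set read (-0.84 ± 0.14 SE, adjusted p = 0.00649). XPOT had 0.30 in 227117_at, 0.48 ± 0.12 above the brighter probe set (adjusted p = 0.0379), with neither of them passing alone. SLC7A1 rose more in 212290_at, from 245 to 421 (0.75 ± 0.09, adjusted p = 0.00051), which is 0.44 ± 0.11 above the probe set read (adjusted p = 0.0438), and its other 2 probe sets had 0.23 and 0.28. ATF3 had 0.47 in 1554980_a_at, which did not pass, and -0.36 in the dim 1554420_at. Of probe sets that were not the one read, PSAT1 fell in 220892_s_at (-0.32, adjusted p = 0.0397 over probe sets) and SLC7A8 in 202752_x_at (-0.41, adjusted p = 0.0251), and neither differed from the probe set read (adjusted p = 0.0679 and 0.147 for the pairs).

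**Figure D3:**
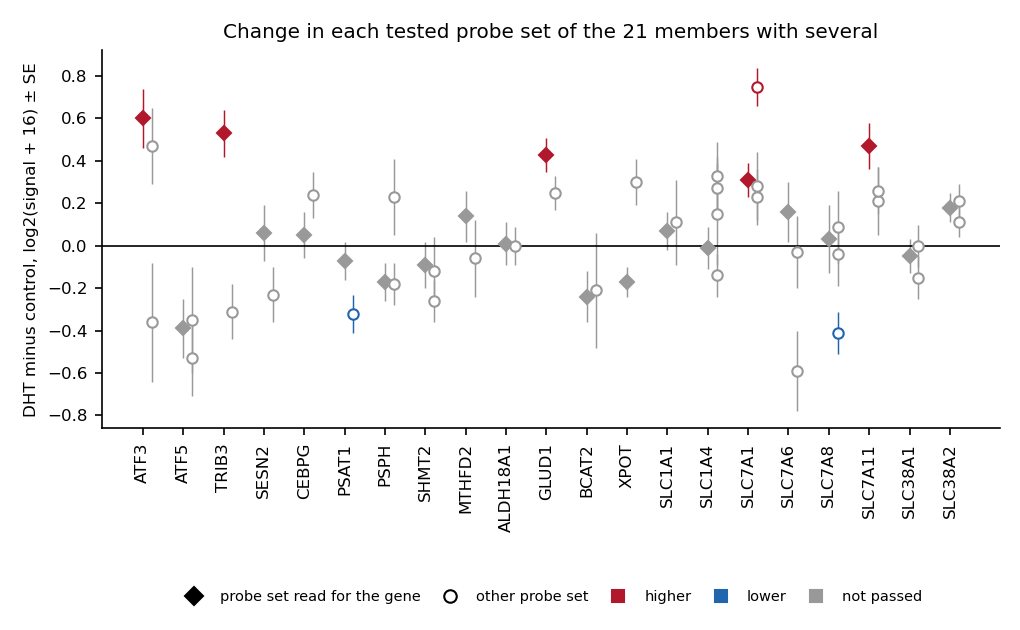
DHT minus control on the log2(signal + 16) scale for every tested probe set of the 21 members with more than 1, the probe set read being marked apart from the others. The TRIB3 probe sets lie on opposite sides of 0, at 0.53 and -0.31, and the 4 of SLC7A1 all lie above it, from 0.23 to 0.75.

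**Figure D4:**
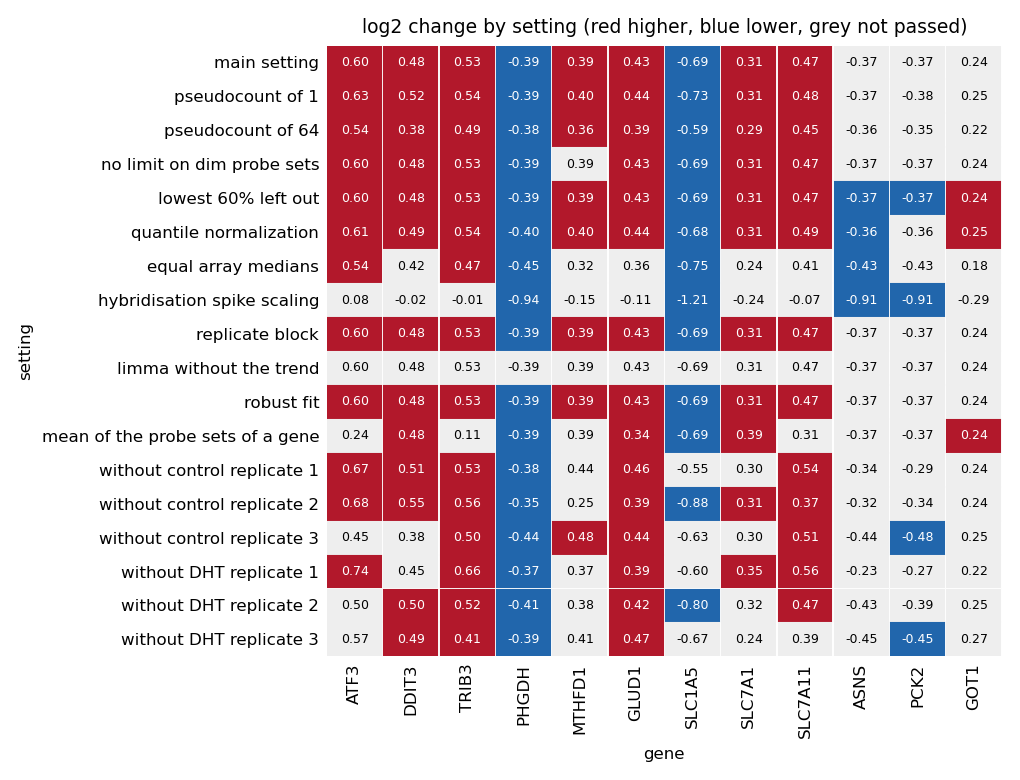
DHT minus control on the log2 scale, printed in each cell, for the 9 members that passed and for ASNS, PCK2 and GOT1 (columns) with the values as described and under each alternative setting (rows). Red cells passed as higher, blue as lower and grey cells did not pass. The row without the variance trend is grey throughout. With spike scaling the 7 members that rose lie between -0.24 and 0.08, where the median of all genes was -0.45.

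The surrounding pathways were read in 8 further lists of 163 genes, of which 141 were tested. Of these 11 rose and 9 fell (14.2%, against 12.9% of all genes), with a median difference of 0.02, the same as over all genes. Without the variance trend 7 of the 141 passed, beside 4.70% of all genes. These 7 were all among the 20, namely CBS, TYMS, GGH, ARG2, ASS1, LAMTOR2 and MTOR.

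Upstream of ATF4, 1 of 15 tested eIF2 kinases, phosphatase subunits and eIF2B subunits rose and none fell (6.67%, beside 12.9% of all genes). EIF2AK3 or PERK, the eIF2 kinase of the endoplasmic reticulum, had signals of 284, 285 and 315 in the controls and 379.5, 373 and 344 with DHT. The groups did not overlap (0.30 ± 0.09, limma adjusted p = 0.044), but the call was lost without any single array (adjusted p = 0.0534 to 0.123) and with the replicate number as a block (adjusted p = 0.0718). PPP1R15B, a phosphatase subunit that reverses eIF2 phosphorylation, had 0.49 and did not pass (adjusted p = 0.0577).

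Cytosolic tRNA synthetases charge tRNA for translation and are common ATF4 targets. Of 17 tested, 1 rose and 3 fell (23.5%, beside 12.9% of all genes), with a median of -0.08. EPRS1, the synthetase for glutamate and proline, had 1632, 1649 and 1780 in the controls and 1341, 1285 and 1317 with DHT. Its groups were far apart (-0.36 ± 0.07, limma adjusted p = 0.00655). RARS1, for arginine, had 1003, 508 and 408 in the controls and 306, 270.1 and 287 with DHT, with control replicate 1 far above the others (-1.01 ± 0.24, adjusted p = 0.0183). Its call was lost on leaving out DHT replicate 2 (-0.96, adjusted p = 0.0606) or DHT replicate 3 (adjusted p = 0.0535), and without control replicate 1 it passed with a smaller difference of -0.63 (adjusted p = 0.00615). HARS1, for histidine, fell by 0.30 (adjusted p = 0.0303) and passed without DHT replicate 1 alone when single arrays were left out (adjusted p = 0.0511 to 0.103 without the others). FARSB, a subunit for phenylalanine, rose by 0.45 (adjusted p = 0.00318), and had 0.23 with its probe sets averaged (adjusted p = 0.245). Of 15 mitochondrial synthetases, which serve translation inside mitochondria, none passed in limma and 3 had an unadjusted p under 0.05, beside 25.9% of all genes.

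Of 23 other reported targets of ATF4 or the stress response, 1 rose and 3 fell (17.4%, beside 12.9% of all genes). CBS, which joins homocysteine to serine on the way to cysteine, had 1859, 1865 and 1750 in the controls and 1194, 1162 and 1096 with DHT. The groups were far apart (-0.66 ± 0.07, limma adjusted p = 0.000174). CTH, the next enzyme of that route, had 204, 162 and 198 in the controls and 125, 141 and 133 with DHT (-0.45 ± 0.11, adjusted p = 0.0259). It passed only without control replicate 2 or DHT replicate 2 when single arrays were left out (adjusted p = 0.0655 to 0.0944 otherwise). SQSTM1, the autophagy receptor p62, fell by 0.58 (adjusted p = 0.00643), and had -0.18 with its probe sets averaged (adjusted p = 0.36). HERPUD1, a protein of endoplasmic reticulum degradation, rose by 0.35 (adjusted p = 0.0172) and passed only without control replicate 1 or DHT replicate 1 when single arrays were left out (adjusted p = 0.0507 to 0.0698 otherwise).

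Among 18 other enzymes of the folate, glycine and methionine cycles, 3 rose and 1 fell (22.2%, beside 12.9% of all genes). TYMS, thymidylate synthase, had 714, 507 and 462 in the controls and 1662, 1473 and 1464 with DHT, 2.73 times as high in the mean (1.45 ± 0.13, limma adjusted p = 6.22e-05). GGH, which trims the glutamate tail of folates, had 139, 120.4 and 104 in the controls and 223, 245 and 239.6 with DHT (0.88 ± 0.12, adjusted p = 0.000648). Neither gene's groups overlapped. AHCY, which cleaves S-adenosylhomocysteine, fell by 0.34 (adjusted p = 0.00882), and GCSH of the glycine cleavage system rose by 0.26 (adjusted p = 0.0268). GCSH passed only without control replicate 1 when single arrays were left out (adjusted p = 0.0576 to 0.0871 otherwise).

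Of 10 other tested enzymes of glutamine, glutamate, proline and arginine, 2 rose and 1 fell, beside 12.9% of all genes in either direction. ARG2, the mitochondrial arginase, had 985, 949 and 886 in the controls and 1878, 1953 and 1935 with DHT (1.02 ± 0.07, limma adjusted p = 8.13e-06). ASS1, which takes part in making arginine from citrulline, had 763, 696 and 692 in the controls and 452, 423 and 396 with DHT (-0.74 ± 0.08, adjusted p = 0.000219). In both genes the groups were far apart and in opposite order. CAD, which starts pyrimidine synthesis from glutamine, rose by 0.46 (adjusted p = 0.0113), but did not pass with equal array medians (0.40, adjusted p = 0.1).

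Of 20 other tested carriers 1 rose and none fell, beside 12.9% of all genes in either direction. SLC1A3, a glutamate and aspartate carrier, was near the limit on dim probe sets, at 18.5, 2.99 and 3.75 in the controls and 24.3, 31.6 and 42 with DHT (1.03 ± 0.29, limma adjusted p = 0.0376). Its call was lost without any array other than control replicate 1 (adjusted p = 0.0568 to 0.135). Of 24 genes through which amino acids reach mTORC1, 2 rose and 1 fell (12.5%, beside 12.9% of all genes). LAMTOR2, a subunit of the lysosomal scaffold, had 383, 348 and 341 in the controls and 258, 244 and 239 with DHT (-0.51 ± 0.09, adjusted p = 0.00317). MTOR, the kinase itself, had 66.9, 75.4 and 60.7 in the controls and 109, 117 and 105 with DHT (0.60 ± 0.13, adjusted p = 0.012; 0.56, adjusted p = 0.0508 without DHT replicate 2). Neither gene's groups overlapped. TSC2, a brake on the complex, rose by 0.33 (adjusted p = 0.049) and passed only without control replicate 3 when single arrays were left out (adjusted p = 0.0689 to 0.164 otherwise), and it had 0.15 with its probe sets averaged (adjusted p = 0.518).

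**Figure D5:**
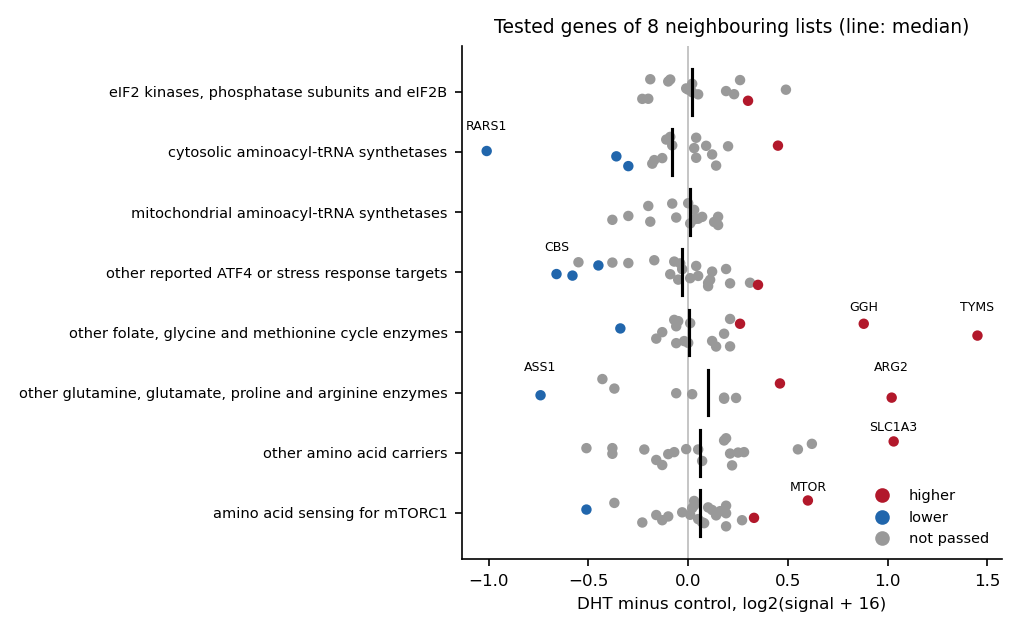
DHT minus control on the log2(signal + 16) scale (horizontal axis) for each tested gene of the 8 further lists (rows), with red for higher, blue for lower, grey for genes that did not pass and a black line at each list's median. The medians run from -0.08 to 0.10, and TYMS at 1.45, SLC1A3 at 1.03, ARG2 at 1.02 and RARS1 at -1.01 lie farthest from 0.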

How the data were processed

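RNA of 6 LNCaP cultures was hybridised to Affymetrix arrays, 1 array each. The deposited values are intensity signals made by the authors with MAS5, per the submitters' processing notes, and the number of arrays limits the precision. Of 54675 probe sets, 62 controls and the lowest 40% by mean log2(signal + 16) were left out (limit at a signal of 17.3), leaving 32768. The array's annotation gave 41097 probe sets 1 gene, 1801 several and 11777 none. limma 3.58.1 in R 4.3.3 (lmFit, and eBayes with a trend on intensity) was fitted to all probe sets kept, tested on simulated data first, and p-values of the 14269 genes were adjusted by Benjamini-Hochberg with a threshold of 0.05. Tables and figures used Python 3.11.15, pandas 2.3.3, scipy 1.17.1 and matplotlib 3.10.9. Members, lists and settings were chosen with earlier results of these data known. Every member is named, and from each further list up to 4 tested genes with the smallest adjusted p. Pseudocount, limit, scaling, block, variance model, probe set rule and left-out arrays were varied. Protein sequences were not used here.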

Additional observations from a re-analysis of the deposited data

How the results depend on the processing

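The 9 member calls stood beside 1834 calls over all genes and 20 over the further lists. With equal array medians the counts were 5 (2 higher, 3 lower), 1142 (40.7% higher, against 54% as deposited) and 11. With spike scaling they were 27 (0 higher, 27 lower), 7582 (1.85% higher) and 102, and without the variance trend 0 (0 higher, 0 lower), 671 and 7. Leaving out the lowest 60% gave 4 lower members, and averaging probe sets 4 higher ones. Without single arrays the counts ran from 5 to 8 members (3 to 6 higher, 1 to 2 lower), 1164 to 1402 genes and 12 to 19 list genes. The C/EBP-ATF element was in 12 members' promoters, and in 7 with C in the open place.

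Spike scaling turned the sign of 21 of the 22 members with a positive difference, all but ATF3: DDIT3 (-0.02), TRIB3 (-0.01), SESN2 (-0.45), CEBPB (-0.39), CEBPG (-0.47), MTHFD1 (-0.15), MTHFD2 (-0.41), PYCR1 (-0.42), ALDH18A1 (-0.53), GLUD1 (-0.11), GOT2 (-0.37), SLC1A1 (-0.44), SLC7A1 (-0.24), SLC7A5 (-0.42), SLC7A8 (-0.50), SLC7A11 (-0.07), SLC38A2 (-0.37), GOT1 (-0.29), SHMT1 (-0.24), SLC7A6 (-0.33) and SLC43A1 (-0.24). It also turned EIF2AK3 (-0.23), FARSB (-0.09), HERPUD1 (-0.19), GCSH (-0.29), CAD (-0.06) and TSC2 (-0.20). This scaling divides each array by its spikes, which were brighter on the DHT arrays, and the cause of that was not tested. It lowered the median of all genes from 0.02 to -0.45. The share of all genes whose sign turned was not counted, so these turns are no result about the members in particular.

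Same-numbered control and DHT arrays did not deviate together (r = -0.014, -0.03 and -0.00092). The labels do not say whether cultures of the same number were grown together, and so few arrays cannot settle whether they are pairs. With the replicate number as a block 1698 genes, 9 members (7 higher, 2 lower) and 19 list genes passed, and no member's call changed.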
